A study of Homo sapiens with 4 samples.

Results

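Apolipoproteins are the protein components of the particles that carry cholesterol and triglyceride in blood. The 10 genes described here are APOA1, APOA2, APOB, APOC1, APOC2, APOC3, APOE, APOH, APOM and MTTP, taken by symbol from a table of 23368 gene symbols of HepG2, a human liver cancer line that secretes lipoproteins. MTTP encodes no apolipoprotein but the microsomal triglyceride transfer protein, which loads lipid onto apolipoprotein B. In hepatocytes that step starts the assembly of very low density lipoprotein in the endoplasmic reticulum. Apolipoproteins A-I and A-II are the main proteins of high density lipoprotein, the C apolipoproteins adjust lipolysis and uptake, and apolipoprotein E is a ligand of the LDL receptor family.

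The 4 libraries were made from total RNA, 1 per condition and all from HepG2. By title they are shPJA/TGFb1, TGFb1, shPJA1 and shCtrl. The shPJA1 cells carried a lentiviral short hairpin RNA against PJA1, an E3 ubiquitin ligase gene, and the shCtrl cells a control hairpin from the same supplier. The TGFb1 cells received TGF-beta1, a cytokine that acts on gene transcription by way of SMAD proteins, at 200 pM for 1 hour per the protocol. It is not stated whether the TGFb1 cells carried a hairpin, whether the shCtrl cells received a vehicle, or whether any hairpin line was a pool or a clone. The library titled shPJA/TGFb1 has conflicting labels: the treatment given for it is water, and the design text names an untreated control in addition to the other 3 libraries. It was placed by its title, as the PJA1 hairpin with TGFb1, and is called the library titled shPJA/TGFb1 throughout.

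The files gave read counts scaled by a size factor for each library, called normalized counts below. Depth was 990698 reads in the library titled shPJA/TGFb1, 2848665 in TGFb1, 1784689 in shPJA1 and 1363318 in shCtrl. PJA1, the targeted gene, had normalized counts of 9.78 in the library titled shPJA/TGFb1, 38.2 in TGFb1, 15.3 in shPJA1 and 50.3 in shCtrl. SMAD7, a direct target of TGF-beta signalling, had 158, 168, 69.3 and 83.0 in the same order. In the library titled shPJA/TGFb1, PJA1 was thus low as in shPJA1, and SMAD7 was high as in TGFb1. Of 9 hepatocyte markers, 8 had a mean normalized count of at least 20, and the summed level of the list was 14800 in the library titled shPJA/TGFb1, 13400 in TGFb1, 13700 in shPJA1 and 15000 in shCtrl. Of 7 enterocyte markers only VIL1 reached that mean, and APOBEC1, SI, ALPI and CDX1 were at 0 in all 4 libraries. Of the markers of other cells, PTPRC, CD3E, CDH5, KDR, DCN and LUM were at 0 in all 4 libraries. The 6 leukocyte markers summed to 1210 in the library titled shPJA/TGFb1, 1080 in TGFb1, 1350 in shPJA1 and 1520 in shCtrl, nearly all of it LYZ and CD68, while the endothelial and fibroblast lists stayed below 10 in each.

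Promoter sequence was read for the members on which the comparisons below turn most, APOM and MTTP, and for APOA2, the member with the highest level per length. The windows are from RefSeq on GRCh38.p14, span 250 bases before to 50 bases after an annotated start, and run 5′ to 3′ on the strand of the gene. An entry was matched for 7 of the 10 members; APOA1, APOB and APOC3 are named only. Capitals mark matches, on either strand, to the nuclear receptor site AGGTCA, to 2 such sites 1 base apart with up to 2 mismatches (the DR1 element bound by HNF4A), to the SMAD box CAGAC, the forkhead core TGTTTAC, the HNF1 site GTTAAT and the box TATAAA.
APOM, chr6:31655644-31655943, plus strand: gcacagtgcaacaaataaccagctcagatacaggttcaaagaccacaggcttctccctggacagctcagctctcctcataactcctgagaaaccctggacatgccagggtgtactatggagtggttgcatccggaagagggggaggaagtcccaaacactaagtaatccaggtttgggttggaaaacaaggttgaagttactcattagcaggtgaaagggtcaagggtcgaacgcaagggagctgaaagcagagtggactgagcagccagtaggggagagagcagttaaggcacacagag
MTTP, chr4:99563880-99564179, plus strand: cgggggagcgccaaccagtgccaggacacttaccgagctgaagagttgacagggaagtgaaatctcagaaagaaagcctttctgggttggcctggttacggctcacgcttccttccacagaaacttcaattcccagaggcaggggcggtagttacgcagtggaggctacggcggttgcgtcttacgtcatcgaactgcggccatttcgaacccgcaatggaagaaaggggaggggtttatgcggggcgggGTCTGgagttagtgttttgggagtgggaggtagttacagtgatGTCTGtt
MTTP, chr4:99574574-99574873, plus strand: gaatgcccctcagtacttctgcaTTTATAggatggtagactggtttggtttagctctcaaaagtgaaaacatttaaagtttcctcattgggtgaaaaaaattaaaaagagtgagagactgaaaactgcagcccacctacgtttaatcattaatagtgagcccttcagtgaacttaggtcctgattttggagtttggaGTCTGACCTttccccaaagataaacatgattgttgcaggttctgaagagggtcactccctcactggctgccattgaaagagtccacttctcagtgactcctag
APOA2, chr1:161223579-161223878, minus strand: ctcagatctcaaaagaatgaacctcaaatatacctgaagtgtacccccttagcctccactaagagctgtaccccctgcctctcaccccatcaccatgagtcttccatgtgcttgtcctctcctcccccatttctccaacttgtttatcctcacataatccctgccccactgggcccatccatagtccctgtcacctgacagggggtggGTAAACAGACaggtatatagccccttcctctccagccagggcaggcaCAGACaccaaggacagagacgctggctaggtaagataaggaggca
The APOM window held no match to the 6 motifs by these rules. Matches with more mismatches than stated were not searched, so the windows may hold weaker sites. Positions are counted from the start, with the start itself as 1 and negative ones before it, and give the leftmost base of a match. The upstream MTTP window held 2 SMAD boxes, at 1 and 44, both on the opposite strand. The downstream MTTP window held a SMAD box at -53 whose letters overlap an AGGTCA site at -50, both on the opposite strand, and the box TATAAA on the opposite strand at -227. The APOA2 window held a forkhead core at -42, on the opposite strand, overlapping a SMAD box at -37, and another SMAD box at 6. Over 35116 promoter windows of the same length, a SMAD box was present in 45.3%, AGGTCA in 13.8%, TATAAA in 11.5%, GTTAAT in 6.88%, TGTTTAC in 3.42% and a DR1 match in 2.97%. A SMAD box is thus a common sequence, and no read count here tells which MTTP start was used. APOH, whose window is not shown, held 2 GTTAAT sites, at -210 and -49.

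By reads, which favour long transcripts, APOB and APOA2 were among the leading genes of the table. APOB, the structural protein of LDL and its precursor particles, had the highest mean normalized count of the whole table, and APOA2 ranked 6 of 23368. APOB took 1.73% of all reads in the library titled shPJA/TGFb1 (Wilson 95% interval 1.70 to 1.76), 1.5% in TGFb1 (1.49 to 1.52), 1.84% in shPJA1 (1.82 to 1.86) and 1.66% in shCtrl (1.64 to 1.69). The 10 members together took 2.24%, 1.94%, 2.34% and 2.15% of reads in the same library order. The TGFb1 library had the lowest share for APOB and for the members as a whole. Intervals here and below cover counting error only, because reads without molecular identifiers are not independent molecules and no condition was repeated.

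**Figure D1:**
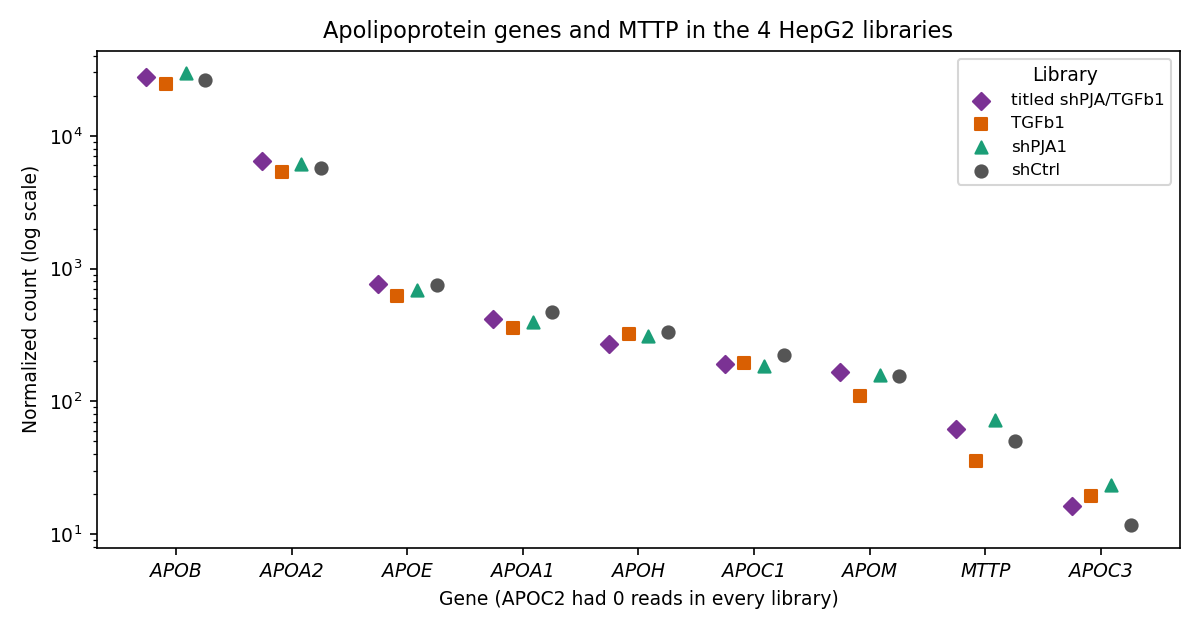
Normalized count (log axis) of 9 members in each library, in the order titled shPJA/TGFb1 (diamonds), TGFb1 (squares), shPJA1 (triangles) and shCtrl (circles), 1 point per library with no replicates. The members span from 27093 (APOB) to 17.7 (APOC3) in mean, while the highest library exceeds the lowest by 2.03 times at most among the 8 members of a mean of at least 20.

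Levels of different genes can be compared only per length, since a long transcript yields more fragments. Per kb of the longest GENCODE 29 transcript, APOA2 had a mean normalized count of 6389, APOB 1919, APOE 586 and APOA1 334. APOC1 had 288 per kb, APOH 264, APOM 125, APOC3 29.3 and MTTP 13.5 per kb on the same scale. This order was the same in all 4 libraries. APOA1 ranged from 291 to 385 per kb across the libraries, APOC1 from 268 to 324 and APOH from 231 to 283, so these neighbours overlapped, whereas the ranges of the other 6 detected members did not overlap those of their neighbours. The choice of length mattered for 2 pairs. With the median transcript length, APOH (426 per kb) stood above APOC1 (391 per kb) and MTTP (98.0 per kb) above APOC3 (32.7 per kb).

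**Figure D2:**
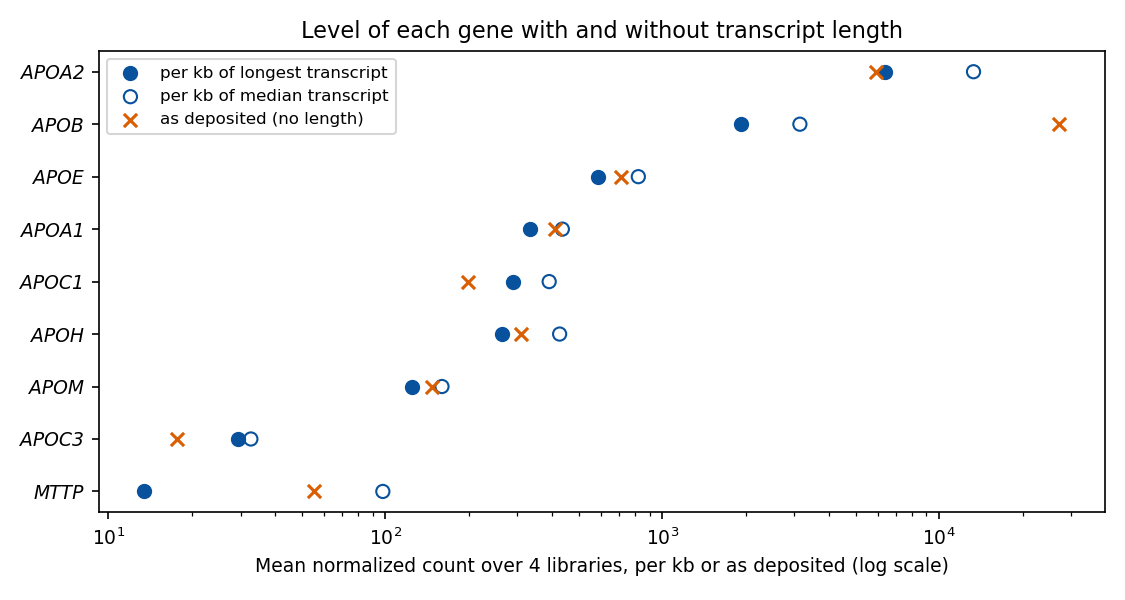
Mean over the 4 libraries of each member, per kb of the longest transcript (filled circles), per kb of the median transcript (open circles) and as deposited (crosses), on a log axis. APOB, with a longest transcript of 14121 bases, is first as deposited and below APOA2 on both per-length scales.

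The genes of the high density lipoprotein proteins were at very unequal levels. APOA2 had normalized counts of 6422 in the library titled shPJA/TGFb1, 5364 in TGFb1, 6178 in shPJA1 and 5725 in shCtrl. APOA1, whose product activates LCAT and accepts cholesterol from ABCA1, had 414, 357, 395 and 472 in that order. Both had their lowest value in the TGFb1 library, but APOA2 was highest in the library titled shPJA/TGFb1 and APOA1 in shCtrl. APOM, whose product carries sphingosine-1-phosphate on high density lipoprotein, had 168 in the library titled shPJA/TGFb1, 110 in TGFb1, 158 in shPJA1 and 155 in shCtrl. For APOM the TGFb1 library stood apart below the other 3.

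Among the genes of apolipoprotein B particles, APOB had 27931 in the library titled shPJA/TGFb1, 24416 in TGFb1, 29509 in shPJA1 and 26518 in shCtrl. MTTP had 61.9, 35.9, 72.9 and 50.3 in the same order, from 38, 63, 81 and 43 reads. APOB and MTTP, whose products act in the same assembly step, both had their highest value in shPJA1 and their lowest in TGFb1. The range of MTTP was wider: its highest value was 2.03 times its lowest, against 1.21 times for APOB.

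APOE had 763 in the library titled shPJA/TGFb1, 626 in TGFb1, 691 in shPJA1 and 754 in shCtrl. APOC1, which lies beside APOE on chromosome 19 and restrains the uptake of remnant particles, had 192, 194, 185 and 223. APOH, the phospholipid-binding beta-2-glycoprotein I and a target of antiphospholipid antibodies, had 272, 324, 311 and 333. APOC1 and APOH were the members at a mean of at least 20 that did not have their lowest value in TGFb1. APOC1 was lowest in shPJA1 and APOH in the library titled shPJA/TGFb1.

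Of the apolipoproteins that act on lipoprotein lipase, APOC3 had few reads and APOC2 none. APOC3, which inhibits the enzyme, had 10 reads in the library titled shPJA/TGFb1, 34 in TGFb1, 26 in shPJA1 and 10 in shCtrl, that is normalized counts of 16.3, 19.4, 23.4 and 11.7. Its mean of 17.7 was below the minimum of 20, so it is left out of the counts of 8 members below (the edgeR fit, with its own minimum of reads, includes it), although APOA1 in the same gene cluster on chromosome 11 was well expressed. APOC2, the activator of the enzyme, had 0 reads in all 4 libraries, which allows a normalized count of up to 4.89 in the library titled shPJA/TGFb1, 1.71 in TGFb1, 2.70 in shPJA1 and 3.51 in shCtrl (3 reads each). Of the annotated APOC2 exons, 55.4% are shared with the readthrough gene APOC4-APOC2, which had 1 read, in TGFb1. How reads on shared exons were counted is not given in the sources used here. If such reads were left out, the limits for APOC2 cover only its unshared exons. APOA1 shares 8.60% of its exon bases with an antisense RNA and APOM 8.20% with BAG6 on the opposite strand, and 43.2% of APOC1 overlaps an unconfirmed transcript on its own strand. No source used here gives the strand setting of the counting, and reads of these overlaps cannot be told apart.

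In the TGFb1 library all 8 members of a mean of at least 20 were lower than in shCtrl, against 47.6% of the 8575 genes at that mean. The differences were small: 0 of 8 members were beyond 1.5-fold on the log2(normalized count + 1) scale, against 8.69% of genes, and the median log2 ratio was -0.24 for the members and 0.02 for all genes. With 1 library per condition there is no test of these ratios. APOM had the lowest ratio, 0.707 (95% counting interval 0.564 to 0.889), followed by MTTP at 0.714 (0.477 to 1.08) and APOA1 at 0.756 (0.666 to 0.859). APOE stood at 0.830 (0.753 to 0.916), APOB at 0.921 (0.906 to 0.936) and APOA2 at 0.937 (0.905 to 0.970). For 5 of 8 members, these genes except MTTP, the interval lay below 1, as it did for 10.6% of all genes. Here and below, whether an interval leaves out 1 depends on read depth, and all genes were not matched to the members by depth. The intervals of MTTP, APOC1 (0.867) and APOH (0.973) held 1.

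**Figure D3:**
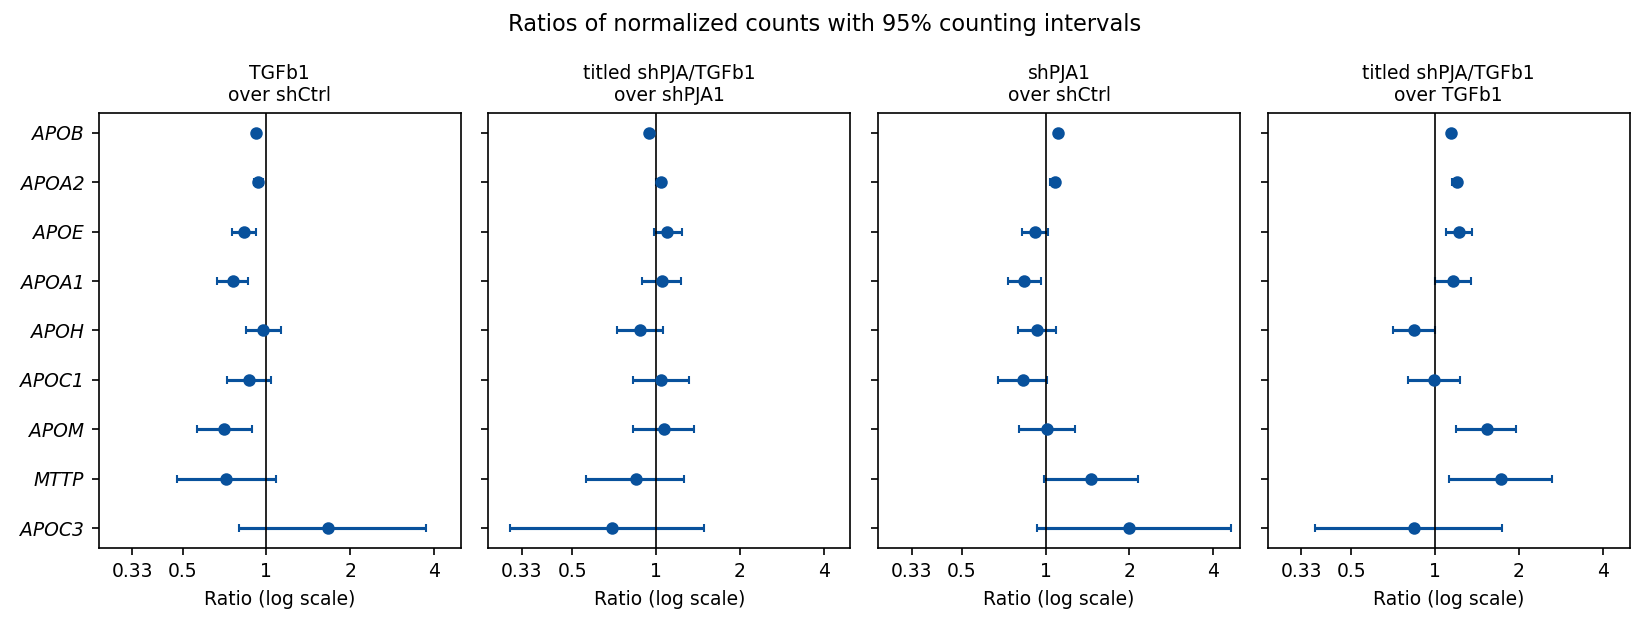
Ratio of normalized counts (log axis) with its exact 95% counting interval for 9 members in 4 pairs of libraries, from left to right TGFb1 over shCtrl, titled shPJA/TGFb1 over shPJA1, shPJA1 over shCtrl and titled shPJA/TGFb1 over TGFb1. In the leftmost panel all members but APOC3 lie below 1, while in the rightmost APOM (1.53) and MTTP (1.73) lie farthest above 1.

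In the other pair that differs in TGFb1 by title, the members lay on both sides of 1, and their count depended on the GC trend described below. Between the library titled shPJA/TGFb1 and shPJA1, 3 of 8 members were lower, against 49.5% of genes, and 0 of 8 were beyond 1.5-fold, against 7.85%. APOB was the only member whose interval left out 1, with a ratio of 0.947 (0.929 to 0.964), and 10.8% of genes had such an interval. MTTP had a ratio of 0.849 (0.562 to 1.26), APOH 0.876 (0.724 to 1.06), APOM 1.07 (0.827 to 1.37), APOA1 1.05 (0.894 to 1.23), APOC1 1.04 (0.824 to 1.31), APOA2 1.04 (0.999 to 1.08) and APOE 1.10 (0.983 to 1.24). The median log2 ratio of the members was 0.06, and that of all genes 0.00. Without the GC trend 7 of 8 members were lower in this pair, against 49.5% of genes, and the members' median was -0.03.

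The pairs that share no library can be set against each other as a ratio of ratios, (titled shPJA/TGFb1 over shPJA1) to (TGFb1 over shCtrl), where 1 means that the hairpin left the TGFb1 ratio as it was. It was 1.51 for APOM (1.08 to 2.09), 1.39 for APOA1 (1.14 to 1.69), 1.33 for APOE (1.14 to 1.55), 1.11 for APOA2 (1.05 to 1.17) and 1.03 for APOB, with an interval that only just left out 1. The counting interval left out 1 for these 5 of 8 members and for 21.6% of all genes, which were not matched to the members by depth. The intervals of APOC1 (1.20), MTTP (1.19) and APOH (0.901) held 1. The quantity rests on 4 single libraries and has no replicate check.

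GC content moved with these values. In the TGFb1 library, genes of GC-rich transcripts were low as a class: at the GC content of APOE (68.5%) the trend over all genes was -0.15 log2 units in TGFb1, against 0.07 in shCtrl, whereas the library titled shPJA/TGFb1 had 0.15, against -0.03 in shPJA1. At the GC content of MTTP (42.1%) it ran the other way, with 0.08 in TGFb1 and -0.05 in shCtrl. After the trend was removed from each library, 7 of 8 members were still lower in TGFb1 than in shCtrl, against 50% of genes. The log2 difference was -0.60 for MTTP, -0.43 for APOM, -0.23 for APOA1, -0.21 for APOB, -0.14 for APOH and -0.08 for APOC1. It shrank to -0.04 for APOE and turned to 0.02 for APOA2. The departure from additivity of APOM was 0.48 log2 units after removal, against 0.59 before, whereas that of APOE was 0.01, against 0.41 before, and that of APOA1 0.16, against 0.47 before. APOM and MTTP thus kept the direction of their difference without the trend, and APOE came close to 0. For the library titled shPJA/TGFb1 over shPJA1 the values without the trend lay between -0.17 (MTTP) and 0.05 (APOM).

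**Figure D4:**
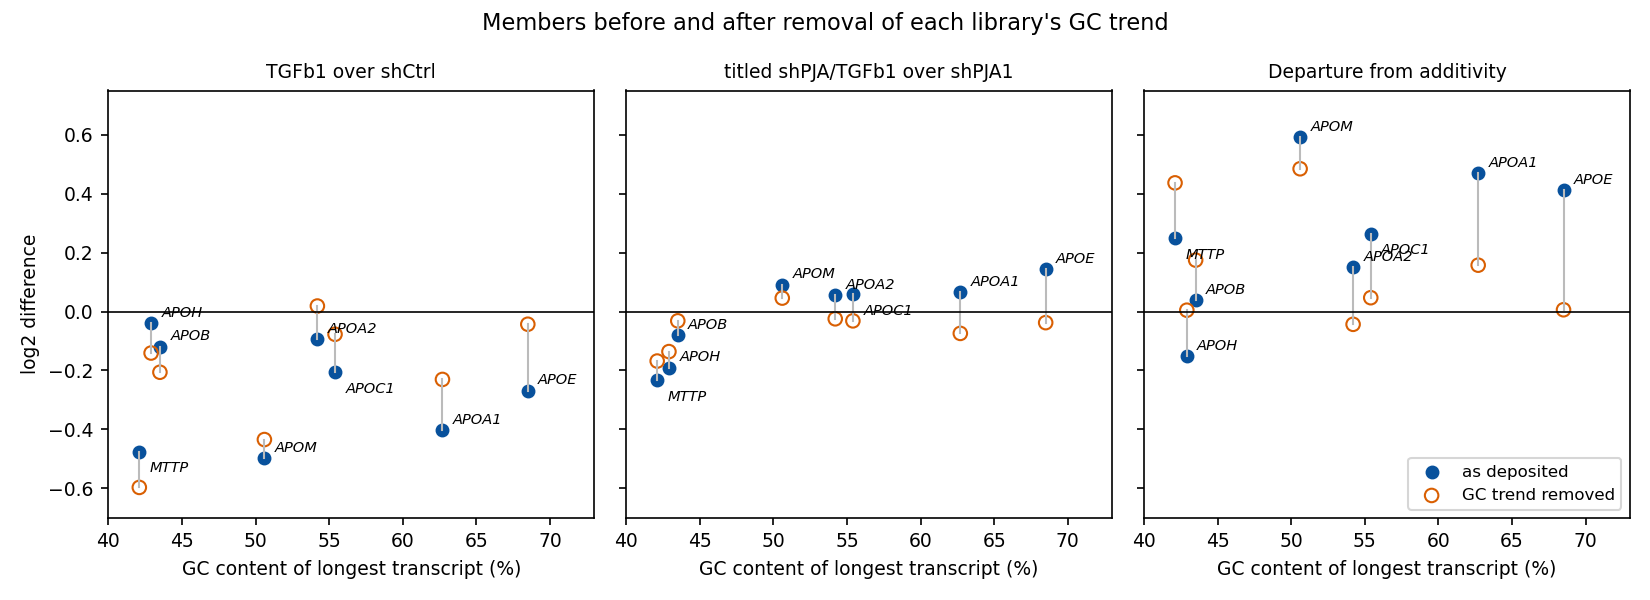
Log2 difference of each member against the GC content of its longest transcript, before (filled) and after (open) removal of each library's GC trend, for TGFb1 over shCtrl, titled shPJA/TGFb1 over shPJA1 and the departure from additivity. APOE, at 68.5% GC, moves to near 0 in all 3 panels, while APOM, at 50.6% GC, keeps most of its difference in the left and right panels.

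Knockdown of PJA1 alone left the members on both sides of shCtrl. Between shPJA1 and shCtrl, 4 of 8 members were lower, against 48.9% of genes, and 0 of 8 were beyond 1.5-fold, against 6.38%. The members with the highest normalized counts were slightly higher, APOB at a ratio of 1.11 (1.09 to 1.13) and APOA2 at 1.08 (1.04 to 1.12). APOA1 was lower at 0.837 (0.730 to 0.961). These 3 members had intervals without 1, as did 13.2% of genes. MTTP had the ratio farthest from 1, at 1.45 (0.991 to 2.15), and APOM was at 1.01 (0.804 to 1.28).

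With TGFb1 in both titles, the hairpin library was the higher for 6 of 8 members, against 48.4% of genes. Relative to TGFb1, the library titled shPJA/TGFb1 had an MTTP ratio of 1.73 (1.12 to 2.62) and an APOM ratio of 1.53 (1.19 to 1.95). These 2 of 8 members were beyond 1.5-fold, both higher, against 9.08% of genes either way and 4.76% higher. APOE was at 1.22 (1.09 to 1.36), APOA2 at 1.20 (1.15 to 1.24) and APOB at 1.14 (1.12 to 1.16), while APOH was lower at 0.840, with an interval that only just left out 1. The intervals of 6 of 8 members left out 1, against 18.1% of genes. This comparison shares the TGFb1 library with that against shCtrl, so a low value there enters both. Without the GC trend the log2 difference was 0.89 for MTTP and 0.55 for APOM, and -0.02 for APOE. The members' median log2 ratio was then 0.08, against 0.24 with the trend. Of the 8 members, 3 were then lower, against 49.6% of genes, and 1 was beyond 1.5-fold, against 7.98%.

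In the library titled shPJA/TGFb1 the members lay on both sides of shCtrl. Their median log2 ratio was 0.05, with a range from -0.29 (APOH) to 0.30 (MTTP). Of the 8 members, 0 were beyond 1.5-fold, against 8.64% of genes. APOA2 was at 1.12 (1.08 to 1.17), APOB at 1.05 (1.03 to 1.07) and APOH at 0.817 (0.671 to 0.993). These 3 of 8 members had intervals without 1, against 10.2% of genes. Over all 4 libraries TGFb1 was the lowest for 6 of 8 members, against 24.7% of all genes. This depended on the GC trend for APOA2 and APOE. With the trend removed, shCtrl was below TGFb1 for APOA2 (log2 ratio of TGFb1 over shCtrl 0.0187). For APOE the library titled shPJA/TGFb1 was then below TGFb1 (log2 ratio to TGFb1 -0.0161). TGFb1 stayed the lowest for APOB, APOM and MTTP, and for APOA1 by only 0.0012 log2 units. No share of all genes without the trend is given. The highest value exceeded the lowest by a median of 1.22 times over the 8 members, against 1.32 times over the 8575 genes at the same minimum mean and 1.24 times over the 4007 genes whose mean was 100 or more. In bulk RNA, fewer cells of a type and less RNA per cell cannot be told apart. The hepatocyte marker sum was also lowest in TGFb1, close to that in shPJA1. Of the markers at a mean of at least 20, AFP (347), TTR (23.4), SERPINA1 (2910), TF (1040) and GPC3 (5210) were lowest there. ALB was instead lowest in the library titled shPJA/TGFb1 (3220, against 3330 in TGFb1). KRT8 (236) and KRT18 (286) were highest in TGFb1. The part of these markers in the members' values was not tested.

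A fit over all 4 libraries with additive terms for hairpin and TGFb1 called no member. In edgeR's quasi-likelihood test with Benjamini-Hochberg adjustment over 10210 genes, 0 of 9 fitted members passed an adjusted p of 0.05 for the TGFb1 term, against 0.0392% of genes, and 0 of 9 for the hairpin term, against 0.00979%. At an unadjusted p below 0.05, edgeR gave 0 of 9 members for TGFb1 (3.75% of genes) and 1 of 9, MTTP, for the hairpin (2.30% of genes). DESeq2 on the same model called no gene for either term, and 23 genes had an unadjusted p below 0.05 for TGFb1 and 4 for the hairpin. For MTTP the hairpin term was 0.66 ± 0.27 log2 units (SE, adjusted p = 0.9999 by edgeR, higher in both hairpin libraries than in their partners) and the TGFb1 term -0.37 ± 0.27 (adjusted p = 0.9994). In the same fit PJA1 fell by 1.80 log2 units with the hairpin (adjusted p = 0.01553) and SMAD7 rose by 1.09 with TGFb1 (adjusted p = 0.001411). DESeq2 called neither of these genes, and edgeR with the GC trend as an offset called SMAD7 but not PJA1. The fit had 1 residual degree of freedom. Its error thus rests on the departure from additivity, the log2 of the ratio of ratios above, shared across genes.

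The wider lipoprotein pathway was described with 6 lists of 76 genes in all, of which edgeR called 0 of the 58 fitted for either term, with an unadjusted p below 0.05 for 6 with TGFb1 (3.75% of all genes) and 1 with the hairpin (2.30%). Of 19 regulators of apolipoprotein transcription, 16 reached a mean of 20, and 14 of these were lower in TGFb1 than in shCtrl, against 47.6% of genes, with a median log2 ratio of -0.18 beside 0.02 for all genes. Among the list genes, a value without the GC trend is given for HNF4A only. The part of that trend in the other list ratios, counts and medians, here and below, was not tested. HNF4A, a nuclear receptor that drives many apolipoprotein promoters, had normalized counts of 359 in the library titled shPJA/TGFb1, 205 in TGFb1, 295 in shPJA1 and 341 in shCtrl. Like APOM it was lowest in TGFb1 and highest in the library titled shPJA/TGFb1. Its ratio was 0.601 in TGFb1 over shCtrl (0.513 to 0.703; 0.643 without the GC trend) and 1.75 in the library titled shPJA/TGFb1 over TGFb1 (1.47 to 2.07; 1.64 without it). In the library titled shPJA/TGFb1 over shPJA1, HNF4A was higher, at 1.21 (1.02 to 1.44), and at 1.16 without the GC trend. CEBPA, CEBPB and FOXA2, further hepatocyte transcription factors, had ratios of 0.642, 0.650 and 0.671 in TGFb1 over shCtrl. HNF4A, CEBPA and CEBPB were the 3 of 16 regulators beyond 1.5-fold in that pair, against 8.69% of genes, and NR2F2 at 0.652 was the only 1 between the library titled shPJA/TGFb1 and shPJA1, against 7.85%.

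Of 17 genes of particle assembly and secretion, 16 reached the mean of 20. In TGFb1, 11 of these were lower than in shCtrl, against 47.6% of all genes. The median log2 ratio of the 16 was -0.08, beside 0.02 for all genes. MIA2, which helps to load large cargo into vesicles at the endoplasmic reticulum, was higher, at 1.59 (1.13 to 2.29) in TGFb1 over shCtrl and 1.63 (1.13 to 2.39) in shPJA1 over shCtrl, 2 ratios with the same denominator. DGAT1, which makes triglyceride, was at 0.681 (0.493 to 0.944) in TGFb1 over shCtrl. SOAT2, which makes cholesterol esters, was at 0.572 in TGFb1 over shCtrl and 0.603 in the library titled shPJA/TGFb1 over shPJA1, with intervals that held 1 at 10 to 30 reads per library.

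Of 11 receptors and uptake genes, 10 reached the mean. In TGFb1, 6 of these were lower than in shCtrl, against 47.6% of all genes. The median log2 ratio of the 10 was -0.07, beside 0.02 for all genes. In that pair LRP1, a remnant receptor, was at 0.671 (0.580 to 0.777) and SCARB1, the receptor of high density lipoprotein, at 0.730 (0.600 to 0.888). VLDLR, which binds particles that carry apolipoprotein E, was at 1.82 (an interval above 1) in shPJA1 over shCtrl. In the library titled shPJA/TGFb1 over shPJA1 it was at 0.640 (0.422 to 0.950). Relative to TGFb1, SCARB1 and LRP1 had higher values in the library titled shPJA/TGFb1, at 1.51 (1.22 to 1.86) and 1.38 (1.16 to 1.62).

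The lists of circulating partners were mostly below the mean of 20. Only 3 of 10 lipase, transfer and remodelling genes reached it. ANGPTL8, an inhibitor of lipoprotein lipase, was at 0.583 (0.403 to 0.847) in TGFb1 over shCtrl. In the library titled shPJA/TGFb1 over shPJA1 it was at 0.453 (0.244 to 0.792), so both pairs that differ in TGFb1 by title had an interval below 1. LIPC, the hepatic lipase, was at 1.52 and 1.53 in the same pairs, with intervals that held 1. Of 5 efflux transporters 2 reached the mean, and ABCA1, which passes cholesterol to apolipoprotein A-I, was at 1.26 (1.13 to 1.41) in TGFb1 over shCtrl. In the library titled shPJA/TGFb1 over shPJA1 it was at 1.08 (0.950 to 1.23). Of 14 other apolipoprotein genes only APOL2, APOL6 and CLU reached the mean, and 3 were at 0 in all 4 libraries. APOL2, a cytoplasmic apolipoprotein L, was at 0.681 (0.487 to 0.956) in TGFb1 over shCtrl. In the library titled shPJA/TGFb1 over TGFb1 it was at 1.5 (1.02 to 2.16).

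**Figure D5:**
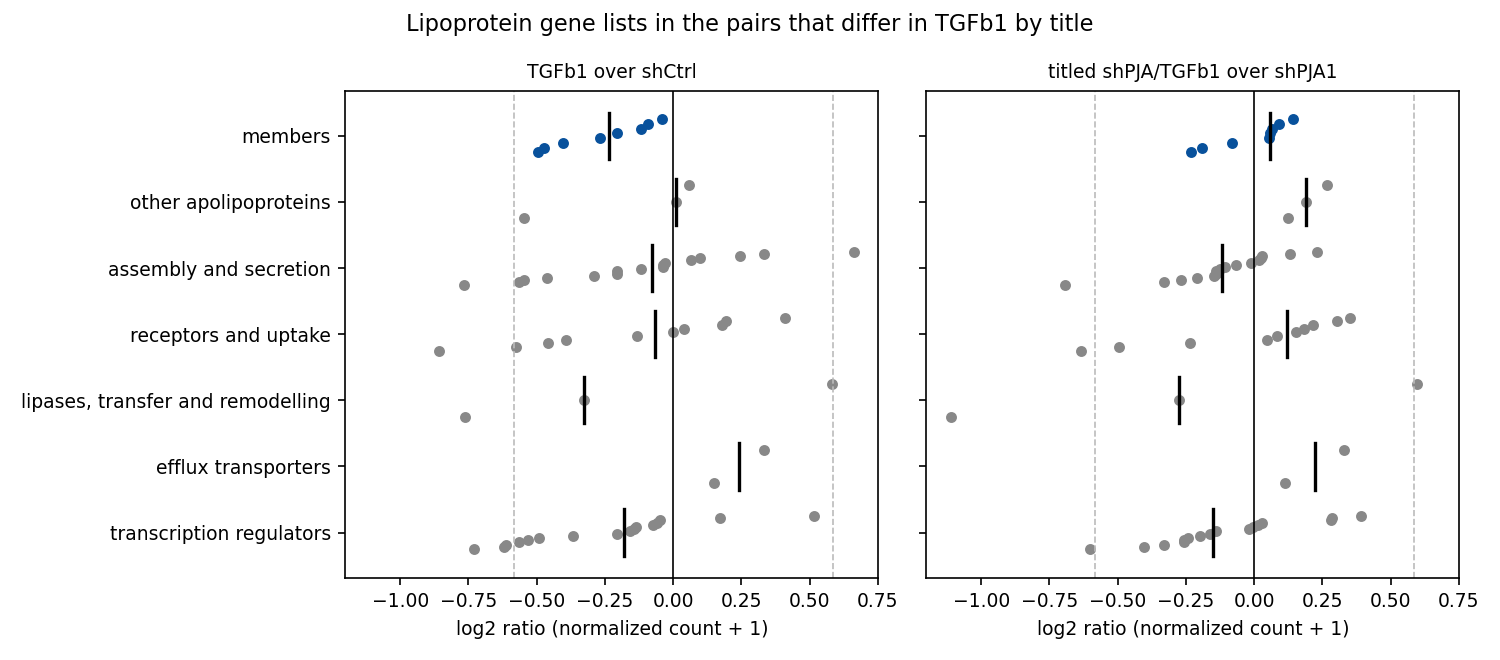
Log2 ratio of normalized count plus 1 for the 8 members (blue) and the genes of 6 pathway lists (grey) that reach a mean of 20, in TGFb1 over shCtrl (left) and titled shPJA/TGFb1 over shPJA1 (right); black bars are list medians and dashed lines mark 1.5-fold. The members' median is -0.24 on the left and 0.06 on the right, and that of the transcription regulators is -0.18 on the left and -0.15 on the right. The GC trend is not removed.

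The genes whose pattern over the 4 libraries was most like the members' median pattern were SIAH2, TM9SF4, ALDH5A1, ACTR1A and PDAP1, out of 4000 candidates of a mean of at least 100. Likeness was the largest absolute difference of the 4 log2 deviations from the gene's own mean, and it was 0.02 for SIAH2 and 0.03 for PDAP1. SIAH2 had normalized counts of 168 in the library titled shPJA/TGFb1, 141 in TGFb1, 164 in shPJA1 and 169 in shCtrl.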

How the data were processed

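TruSeq (Illumina) libraries of total RNA were sequenced, per the labels' protocols. The submitters' processing notes name TopHat2 2.0.10, Cufflinks, Trimmomatic and FastQC; build, annotation and strand setting: not given in the sources used here. The deposited signal is named FPKM, but in each library 100% of the authors' values were integer multiples of the value of 1 read (tolerance 1e-06), so it is reads divided by a size factor; the factors were 0.6135 in the library titled shPJA/TGFb1, 1.756 in TGFb1, 1.111 in shPJA1 and 0.8556 in shCtrl. The comparisons had been planned for values per length, and the same rules were applied to normalized counts.

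Ratios are plain ratios with an exact 95% interval for 2 Poisson counts, conditional on their sum; fold counts and medians use log2(normalized count + 1), which understates changes of low genes, over 8575 genes of a mean of at least 20. For 10210 genes of at least 40 recovered reads the reads were fitted with edgeR 4.0.16 in R 4.3.3 (TMM, glmQLFit, additive hairpin and TGFb1 terms, common coefficient of variation 10.9%), with DESeq2 1.42.0 as an alternative. P-values set each term against the departure of these 4 libraries from additivity, with spread shared across genes, and not against replicates. GC trends were lowess curves (span 0.3) on GENCODE 29 transcripts, matched for 98.6% of kept genes. The edgeR fit was run on simulated counts with known fold changes. Those changes were larger than the members' differences in either term, so calls of differences as small as theirs were not tested. All members were named, with PJA1 and SMAD7 as label checks, up to 4 genes of each list per comparison with the largest log2 ratio, and the 5 genes nearest in pattern. HNF4A was also named outside this rule, between the library titled shPJA/TGFb1 and shPJA1. A result that this rule selects is not reported here. The members and lists were chosen with earlier results of these data known. Other tools were scipy 1.17.1, statsmodels 0.14.6, pandas 2.3.3, numpy 2.4.6 and matplotlib 3.10.9 in Python 3.11.15.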

Additional observations from a re-analysis of the deposited data

Results flagged for a closer look

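The TGFb1 ratio differed between the pair with the PJA1 hairpin by title and the pair without it for 5 members, beyond counting error. The ratio of ratios was 1.51 for APOM, 1.39 for APOA1, 1.33 for APOE, 1.11 for APOA2 and 1.03 for APOB, against 21.6% of all genes whose counting interval left out 1. Those genes were not matched to the members by depth. APOM (0.59 log2 units) kept 0.48 without the GC trend, APOA1 0.16, APOB had 0.17, APOE 0.01 and APOA2 -0.04. The part of the GC trend in these values was not tested. Each of the 4 libraries is the only 1 of its condition, so library and condition cannot be told apart.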

How the results depend on the processing

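Most values held under other scalings, pseudocounts, filters and fold limits, within a margin set by the members' counting intervals. That margin is wide for the members' medians. Without the GC trend they went from 0.24 to 0.08 in the library titled shPJA/TGFb1 over TGFb1 and from 0.06 to -0.03 over shPJA1. The median departure from additivity went from 0.26 to 0.10. All 3 fell within the margin. The count of members beyond 1.5-fold, 0 in TGFb1 over shCtrl, became 1 with no filter or a mean of at least 1, 3 at the lower fold limit tried and 1 without the GC trend. In shPJA1 over shCtrl it was 0 and became 1 with no filter, with a mean of at least 1 and at the lower fold limit. In the library titled shPJA/TGFb1 over TGFb1 it was 2 and became 1 with a pseudocount of 10, 0 at 2-fold and 1 without the GC trend. Removal of the GC trend turned the log2 ratio of APOA2 in TGFb1 over shCtrl to 0.0187 (-0.09 with the trend), APOE in the library titled shPJA/TGFb1 over TGFb1 to -0.0161 (0.29 with it) and the APOA2 departure from additivity to -0.0434 (0.15 with it). Grouping by treatment label, with that library as water, turned the members' median log2 ratio, 0.24 by title, to -0.24 by construction. The log2 ratio of APOA2 over APOB was 1.74 per kb of the longest transcript, 2.08 with the median transcript and -2.19 with no length. DESeq2, DESeq2 size factors, no read filter beyond 1 read and a GC offset also called 0 members for either term. Over all genes edgeR called 2 higher and 2 lower for TGFb1 as reported, 5 and 6 with the GC offset, and DESeq2 0. Leaving out a library was not possible. No paired analysis was possible because each condition has 1 library and so no replicate number to use as a block; the additive fit pairs conditions, not replicates. Depth limits MTTP, APOC3 and APOC2 most, and for APOC2 the counting of reads on shared exons is also not known.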
